A study of Drosophila melanogaster with 6 samples.

Results

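BEAF-32 (boundary element-associated factor) peaks that stood in close runs were examined in chromatin of Drosophila melanogaster wing imaginal discs. The runs were chosen by peak position alone. Neighbouring peaks on the 5 large chromosome arms (2L, 2R, 3L, 3R and X) were linked where their midpoints lay at most 5000 bp apart, and every peak of a linked run of 3 or more was a member. By this rule 567 of the 2570 peaks on these arms (22.1%), out of 2609 in the whole list, fell into 147 runs. Of the others on the large arms, 570 stood in runs of 2 and 1433 stood alone.

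The series holds 4 ChIP libraries, made with an antibody that recognises the isoform BEAF-32B, and 2 libraries of input chromatin, all from third-instar wing discs of the wild-type strain that the labels spell Orgon R. No allele or treatment is named. Discs were pooled, so each library mixes many larvae and all cell types of the disc. The series has 1 deposited list of peaks, which does not say which libraries entered it. It gives a chromosome, a start and an end for each peak, and no score, height or value per library. Depth is therefore unknown, and neither the spread between ChIP libraries nor the level in the input could be measured.

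BEAF-32 is a DNA-binding insulator protein found in flies. It recognises groups of the word CGATA, binds mostly near the starts of actively transcribed genes, often between divergently oriented neighbours, and is enriched at the borders of chromatin domains. Insulators are known for blocking contact between an enhancer and a promoter when placed between them. The sequences and genes under the peaks were not analysed here, since no genome of the list's build was at hand.

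The members were unevenly shared among run sizes. Runs of 3 were the most frequent, with 88 runs and 264 peaks, 46.6% of all members. There were 31 runs of 4 (124 peaks), 14 runs of 5 (70 peaks), 4 runs of 6 (24 peaks), 3 runs of 7 (21 peaks) and 5 runs of 8 (40 peaks). The list also held 1 run of 11 and 1 run of 13.

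All 147 runs together spanned 1096.1 kb, or 0.936% of the arms measured to their last peak, and held 22.1% of the peaks. The rule picks peaks that lie close together, so this density follows from the selection and is no finding. The median run was 6.99 kb long (95% interval 6.38 to 7.46 kb), and runs ranged from 2.12 to 30.4 kb. Peaks filled 39.9% of the summed span, and the median run was 38.9% covered (36.2 to 41.7%). Coverage ran from 18.2% in the run of 3 at chr2R:19939875-19948898 to 95.0% in the run of 3 at chr3L:5743081-5746670. These 2 extremes were picked out after their values were seen.

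A run was thus a stretch of separate peaks with uncovered chromatin between them more often than a nearly continuous block. Intervals in this account are distribution-free order-statistic intervals for medians and exact Clopper-Pearson intervals for shares. They cover the counting of peaks, take peaks or runs as independent, and say nothing of the spread between libraries. No test between classes of peaks was made, because all values come from 1 list and the membership was set by the peak positions themselves.

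The 10 runs with 7 or more peaks held 85 members. Of these runs, 4 lay on X, 3 on 3L, 2 on 3R, 1 on 2R and 0 on 2L. The largest, chr3L:8668378-8698806, had 13 peaks in 30.4 kb. From its first to its last peak the widths were 956, 1326, 1073, 645, 686, 643, 896, 814, 681, 666, 637, 873 and 1036 bp. The wide peaks of this run sat near its ends, with the 3 wider than 1000 bp at positions 2, 3 and 13.

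Its distances between midpoints ran from 946.5 to 4770.5 bp with a median of 2421.2 bp. The spacing was uneven, with 4 edge gaps of 500 bp or less and others of up to 4119 bp. The next peak outside it lay 13223 bp away on the side of lower coordinates and 93714.5 bp away on the other.

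The run of 11, chr3R:4627117-4649944, spanned 22.8 kb. Its widths in order were 1474, 823, 348, 446, 583, 1024, 354, 332, 469, 576 and 809 bp. Most of its inner peaks were narrow: their median was 469 bp, against 1141.5 bp for its 2 outer peaks. The peak at its eighth position, chr3R:4642310-4642641, was among the 5 narrowest of all members.

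The run of 8 at chr3L:627734-640961 had the most wide peaks of any run, 5 of 8. Its widths in order were 1187, 699, 875, 889, 1492, 1304, 1193 and 1853 bp, and peaks filled 71.8% of its 13.2 kb. The run of 7 at chr3L:9366641-9381308 was similar in width, with 1362, 1388, 921, 746, 1486, 1346 and 598 bp. It had no edge gap of 500 bp or less, its shortest being 542 bp.

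The other large runs held few wide peaks. The run of 8 at chr2R:8811381-8824640 had a median width of 883.5 bp and 1 peak wider than 1000 bp. The runs of 8 at chrX:6754148-6765138 and chrX:9042505-9054865 had medians of 706.5 and 567.5 bp and no peak above 980 bp. The run of 8 at chrX:12629113-12650833 was the loosest of the large runs, with 24.7% of its 21.7 kb covered and a mean distance of 2973.6 bp.

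The last 2 of the 10 differed in the same way. The run of 7 at chrX:8784925-8792543 was the densest in peaks per length, with 7 in 7.62 kb and 5 edge gaps of 500 bp or less, the shortest 30 bp. The run of 7 at chr3R:7035800-7050095 had widths between 666 and 960 bp, the narrowest range of the 10. In 4 of the 10 the inner median was above the outer one, and in 6 it was below.

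**Figure D1:**
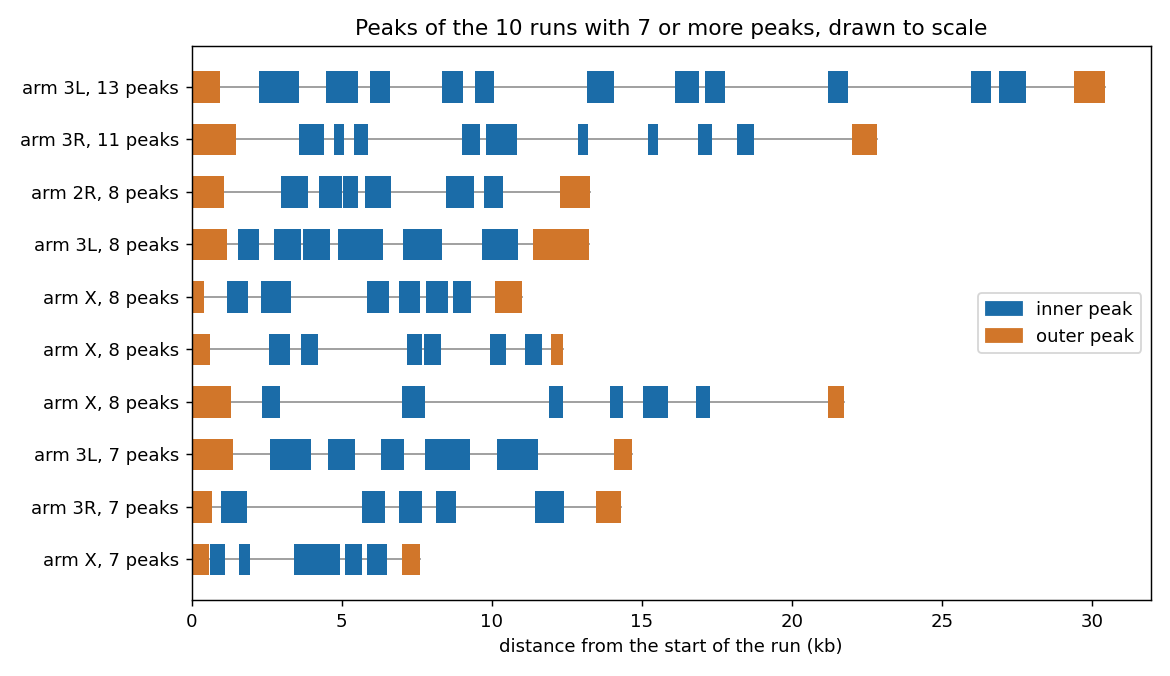
The peaks of the 10 runs with 7 or more peaks are drawn to scale as boxes, against the distance from the start of each run in kb, with inner peaks in blue and outer peaks (the first and last) in orange. Spans ranged from 7.62 kb (arm X, 7 peaks) to 30.4 kb (arm 3L, 13 peaks), and the longest gap between peak edges ran from 1346 bp (arm 3L, 8 peaks) to 4140 bp (the arm X run of 8 that spans 21.7 kb).

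The 3 runs with the shortest mean distance were all runs of 3. In chr3R:27550298-27552421 the peaks measured 640, 603 and 621 bp, and the gaps between their edges were 186 and 74 bp. In chr2L:7825331-7828115 they measured 1082, 690 and 502 bp with gaps of 359 and 152 bp. In chr2R:10060604-10063425 they measured 923, 616 and 565 bp with gaps of 383 and 335 bp. Peaks covered 74.6 to 87.8% of these 3 runs.

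The 420 distances inside runs had a median of 2119.8 bp (95% interval 1948 to 2266 bp), with quartiles of 1215.6 and 3419.5 bp. In the 285 runs of 2 the median distance was 2001.5 bp (1785.5 to 2200 bp), with quartiles of 1132.5 and 3387 bp. The intervals of both medians overlapped. Distances of up to 2000 bp made up 47.1% of those inside runs and 49.8% of those in runs of 2.

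Between peak edges, the gap inside runs was 1335.5 bp in the median (1076 to 1511 bp) and ranged from 7 to 4352 bp. In runs of 2 the median gap was 1275 bp (986 to 1431 bp). Gaps of 500 bp or less were 125 of 420 inside runs (29.8%) and 86 of 285 in runs of 2 (30.2%). Such gaps thus made up about the same share of the gaps in both. Of those inside runs, 27 were of 100 bp or less.

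At least 1 gap of 500 bp or less was present in 82 of the 147 runs (55.8%), and in 8 runs all gaps were that short. Whether such close peaks were parts of 1 bound site divided by the peak caller was not tested. With peaks closer than 500 bp merged first, 348 merged peaks in 100 runs remained as members.

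**Figure D2:**
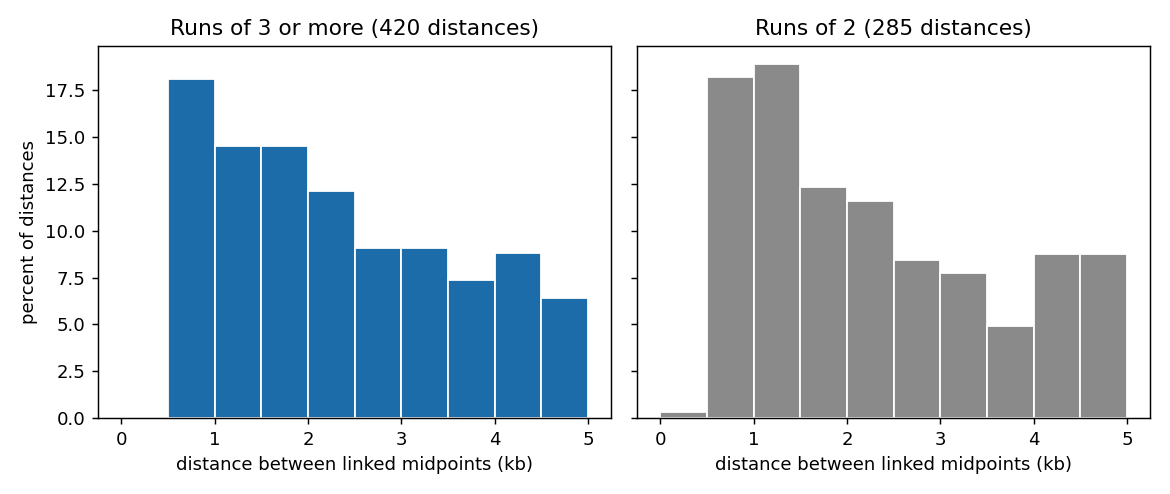
The percentage of distances between linked midpoints is plotted in classes of 500 bp, for runs of 3 or more on the left and for runs of 2 on the right. Inside runs the class from 500 to 1000 bp was the fullest with 18.1%, followed by the next 2 classes with 14.5% each. In runs of 2 the classes from 500 to 1000 bp and from 1000 to 1500 bp held 18.2% and 18.9%.

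The linking limit did not fall into a natural break of the distances. The 3 linked distances nearest below it were 4986.5, 4958 and 4933.5 bp, and the 3 nearest above it were 5032, 5038 and 5049.5 bp. Over all peaks of the large arms, 52 distances lay between 4500 and 5000 bp and 36 between 5000 and 5500 bp. Small shifts of a peak border near the limit would therefore change the membership of some peaks.

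Inside the 59 runs of 4 or more, the median of the inner distances was below that of the distances at the ends. The 126 distances between inner peaks had a median of 1725.8 bp (1507.5 to 2111.5 bp). The 118 distances from an outer peak to its neighbour had a median of 2336.2 bp (1957.5 to 2617.5 bp). The 2 intervals overlapped, and the quartiles were 1093.1 and 2845.9 bp for inner distances, against 1322.4 and 3597.1 bp for the ends. Larger runs gave more of the inner distances, and the median distance was 1466.5 bp in runs of 8 against 2191 bp in runs of 4. Place in the run and run size were not separated here.

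Median distances were lower in larger runs up to 8 peaks, but runs of 3, 4 and 5 were nearly alike. The median distance was 2238.8 bp in runs of 3, 2191 bp in runs of 4, 2139 bp in runs of 5, 1783.2 bp in runs of 6, 1700.5 bp in runs of 7 and 1466.5 bp in runs of 8. The runs of 11 and 13 departed from that order, with 2037.8 and 2421.2 bp. The values for 6 and more peaks rest on 1 to 5 runs each.

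Spacing was uneven within many runs. The longest distance of a run was 2.26 times its shortest in the median (2.00 to 2.69), with a range of 1.02 to 8.18. In 56 runs it was more than 3 times the shortest. In 39 runs it was less than 1.5 times, and 34 of these were runs of 3, which have only 2 distances to compare. The median ratio of longest to shortest distance was 1.80 in runs of 3 and 3.68 in runs of 4 or more.

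The width of a peak was not used to link it, although 2 close peaks cannot be wider than their spacing allows. Members had a median width of 688 bp (95% interval 664 to 723 bp), quartiles of 546 and 895.5 bp, and extremes of 319 and 2442 bp. Runs of 2 had a median of 663 bp (642 to 694 bp). Single peaks had a median of 649 bp (630 to 662 bp), with quartiles of 507 and 816 bp. Members were thus wider than single peaks by 39 bp in the median (11.7 to 78.8 bp), which is small beside the range from quartile to quartile. The difference was 28 bp (-11.6 to 67.4 bp) without arm 2L, 35 bp (-6.23 to 81.6 bp) without X and 26.5 bp (-18.3 to 69.1 bp) with a link of 3000 bp, intervals that include 0.

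Wide peaks were also more frequent among members than among single peaks, taken over all arms. Peaks above 1000 bp numbered 108 among members, or 19.0% (15.9 to 22.5%), while 14.7% of all peaks on the large arms were that wide. The share was 15.6% in runs of 2 (12.7 to 18.9%) and 12.6% among single peaks (10.9 to 14.4%). Members held 28.6% of the wide peaks and 22.1% of all peaks.

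Wide members were spread over 73 of the 147 runs, and 23 runs held 2 or more of them, 58 in all. In 2 runs of 3 every peak was wider than 1000 bp. One was chr2L:12006511-12012854, with widths from 1082 to 1317 bp. The other was chr2R:17030662-17037655, with 2370, 1111 and 1047 bp.

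Over all arms, the higher median came with the larger runs. In runs of 3 it was 647.5 bp (628 to 707 bp), a difference from single peaks of -1.5 bp (-24.9 to 61.0 bp). In runs of 4 it was 696 bp (636 to 759 bp), in runs of 5 753.5 bp (630 to 812 bp) and in runs of 6 to 13 734 bp (678 to 800 bp). The 303 peaks in runs of 4 or more had a median of 722 bp, against 649 bp for single peaks, a difference of 73 bp (31.9 to 112.8 bp). The arms were not alike in this: runs of 3 had a higher median than single peaks on 2L (707 against 619.5 bp) and X (685 against 600 bp), and a lower one on 2R, 3L and 3R. Runs of 4 or more had the higher median on all 5 arms, by 42 to 183 bp, with intervals above 0 on 3R and X only.

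Wide peaks followed the same order only in part. They were 16.7% of the peaks in runs of 3, 18.5% in runs of 4, 28.6% in runs of 5 and 19.3% in runs of 6 to 13. Their intervals all overlapped, that of runs of 5 being the widest at 18.4 to 40.6%. Taken run by run, the median width was above that of single peaks in 81 of 147 runs (55.1%).

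Inner and outer members had nearly the same width. The 273 inner peaks had a median of 686 bp (641 to 740 bp) and the 294 outer peaks 693 bp (653 to 732 bp), a difference of -7 bp (-66.5 to 60.2 bp). Its sign varied with the settings, from -36 bp in runs of 4 or more to 48.5 bp after merging within 500 bp. Peaks wider than 1000 bp were 18.3% of the inner peaks (13.9 to 23.4%) and 19.7% of the outer ones (15.3 to 24.7%). Within the same run the inner median exceeded the outer one in 68 runs and was below it in 79. The counts were 39 and 49 in runs of 3, and 29 and 30 in runs of 4 or more.

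The widest peak of a run showed no fixed place. In runs of 3 it was the inner peak in 29 of 88 (33.0%), where inner positions make up 33.3%. In runs of 4 it was an inner peak in 13 of 31 (41.9%), against 50% of positions, and in runs of 5 in 9 of 14 (64.3%), against 60%. Over all runs of 4 or more, an inner peak was the widest in 52.5%, where inner positions make up 61.1%.

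**Figure D3:**
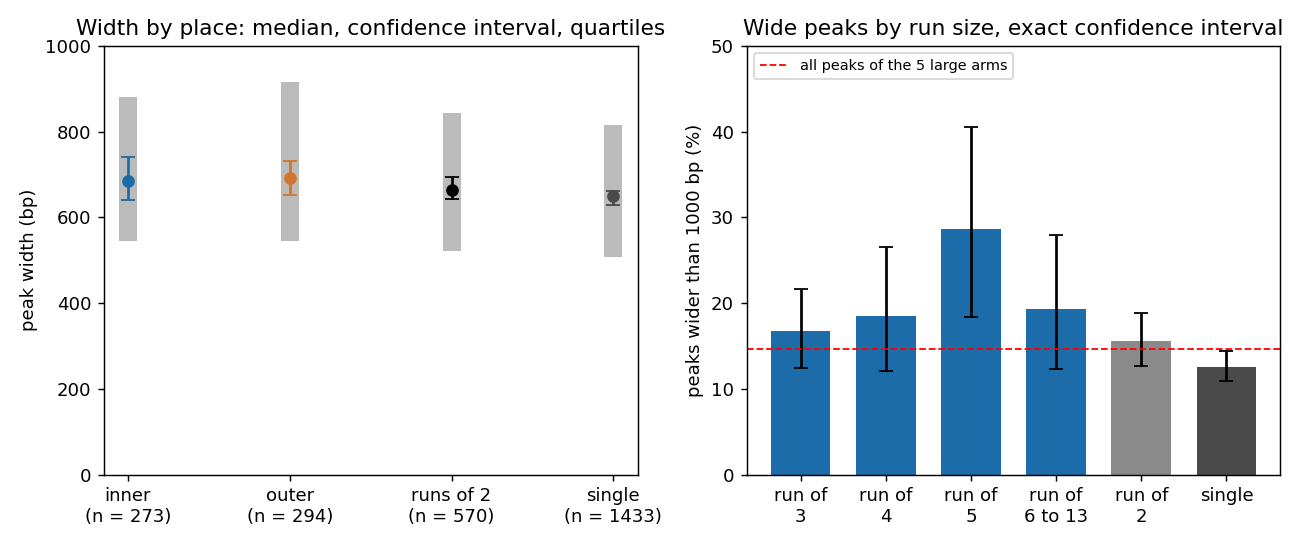
Left, peak width in bp for inner and outer members, runs of 2 and single peaks, with the median as a point, its 95% interval as a bar and the quartiles as a grey box. Right, the percentage of peaks wider than 1000 bp by run size with exact 95% intervals and a dashed line at 14.7% for all peaks of the 5 large arms. Inner (686 bp) and outer (693 bp) medians nearly coincide, and single peaks have the lowest share of wide peaks at 12.6%.

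Members were counted among the widest peaks, beside their share of 22.1% of all peaks. Of the 10 widest peaks of the large arms, 5 were members, 2 stood in runs of 2 and 3 were single. Among the 50 widest, 21 were members, 10 stood in runs of 2 and 19 were single, and among the 100 widest the counts were 32, 23 and 45. Over all 2570 peaks the same counts were 567, 570 and 1433. These cuts were chosen after the values were seen.

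The widest member was chr2L:852043-854484 with 2442 bp, the last of a run of 4 whose other peaks measured 492, 495 and 1694 bp. The next was chr3R:19880929-19883318 with 2390 bp, the middle of a run of 3 between peaks of 1057 and 698 bp. The third, chr2R:17030662-17033031 with 2370 bp, opened the run of 3 wide peaks described above. The widest members thus had neighbours both narrow and wide.

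The fourth was chr2L:5981359-5983620 with 2262 bp, the last of a run of 4 after peaks of 464, 801 and 958 bp, the nearest only 108 bp away. The fifth was chrX:15640583-15642741 with 2159 bp, between peaks of 884 and 369 bp at gaps of 127 and 265 bp. Of these 5 members, picked for their width, 4 had a neighbour within 500 bp. Of all 567 members, 224 had one.

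The 5 narrowest members measured 319 to 337 bp. The narrowest, chrX:18544214-18544532, lay in the middle of a run of 3 between peaks of 357 and 685 bp. The others were chr2R:15173761-15174084 (324 bp, outer), chr3L:11550028-11550357 (330 bp, outer), the 332-bp inner peak of the run of 11, and chr2R:5439514-5439850 (337 bp, inner in a run of 5). Narrow members occurred at inner as well as outer positions.

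Close contact with a neighbour did not go with greater width across members. The 224 members with an edge gap of 500 bp or less on either side had a median of 655 bp (625 to 720 bp), and 16.1% of them were wider than 1000 bp. The 343 members farther from their neighbours had a median of 713 bp (672 to 746 bp) and 21.0% wide peaks. Across the 567 members, width and nearest edge gap had a Spearman rho of 0.0410, a description over peaks that share runs.

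Linked neighbours resembled each other little in width. Over the 420 linked pairs inside runs the median difference was 222 bp and Spearman's rho was 0.143. Over 1109 pairs of consecutive single peaks the values were 197 bp and 0.0779. By arm, rho inside runs lay between 0.0244 on X (128 pairs) and 0.327 on 3L (89 pairs). These are descriptions in which inner peaks enter 2 pairs each.

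The share of peaks in runs differed among the arms. It was highest on X, where 170 of 577 peaks (29.5%, 95% interval 25.8 to 33.4%) stood in 42 runs. It was 23.4% on 3L (118 peaks in 29 runs, 19.8 to 27.4%), 22.2% on 2R (111 in 31, 18.7 to 26.2%), 17.5% on 2L (67 in 19, 13.8 to 21.7%) and 16.6% on 3R (101 in 26, 13.8 to 19.8%). The interval of X overlapped those of 3L and 2R and lay above those of 2L and 3R. Peaks of all classes occurred at 26.0 per Mb on X, 21.7 on 3L, 23.8 on 2R, 16.7 on 2L and 21.8 on 3R. The share in runs did not follow this order throughout: 3R and 3L were about equally dense, and 2L, the sparsest, had a share close to that of 3R. The part of density in the shares was not tested.

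X thus held 30.0% of all members and 22.5% of the peaks. Arm 3R held 17.8% of the members and 23.6% of the peaks. Runs occurred at 1.89 per Mb on X, 1.48 on 2R, 1.25 on 3L, 0.935 on 3R and 0.831 on 2L. Runs were longest on average on 3L (4.07 peaks) and X (4.05 peaks) and shortest on 2L (3.53 peaks), where no run exceeded 5 peaks.

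Distances inside runs varied less among the arms. The median was 1923.5 bp on 3R, 2104.2 bp on X, 2121 bp on 3L, 2150.2 bp on 2L and 2291.5 bp on 2R. X, the arm with the most runs, had a median above that of 3R only, and no consistent order with the number of runs was seen.

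The width difference between members and single peaks was not the same on every arm. On 2L the medians were 771 bp in runs and 619.5 bp for single peaks, a difference of 151.5 bp (39.1 to 233.0 bp). On X they were 685 and 600 bp, a difference of 85 bp (21.5 to 144.6 bp). On 3R (712 and 666 bp) and 3L (671.5 and 653.5 bp) the differences of 46 and 18 bp had intervals that included 0. On 2R members were narrower, with 638 bp against 675 bp for single peaks, a difference of -37 bp whose interval also included 0 (-94.3 to 74.5 bp).

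Wide peaks made up 25.4% of members against 8.94% of single peaks on 2L, 25.4% against 12.5% on 3L and 21.6% against 12.8% on 2R. On X the shares were 12.4% and 11.0%, and on 3R 15.8% and 16.0%. The 2 measures therefore ranked the arms differently: on X members had a higher median with few wide peaks, and on 2R more wide peaks with a lower median. On 3L, 12 of the 30 wide members belonged to its 3 runs of 7 or more, and wide peaks were 20% of the other 90 members there.

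**Figure D4:**
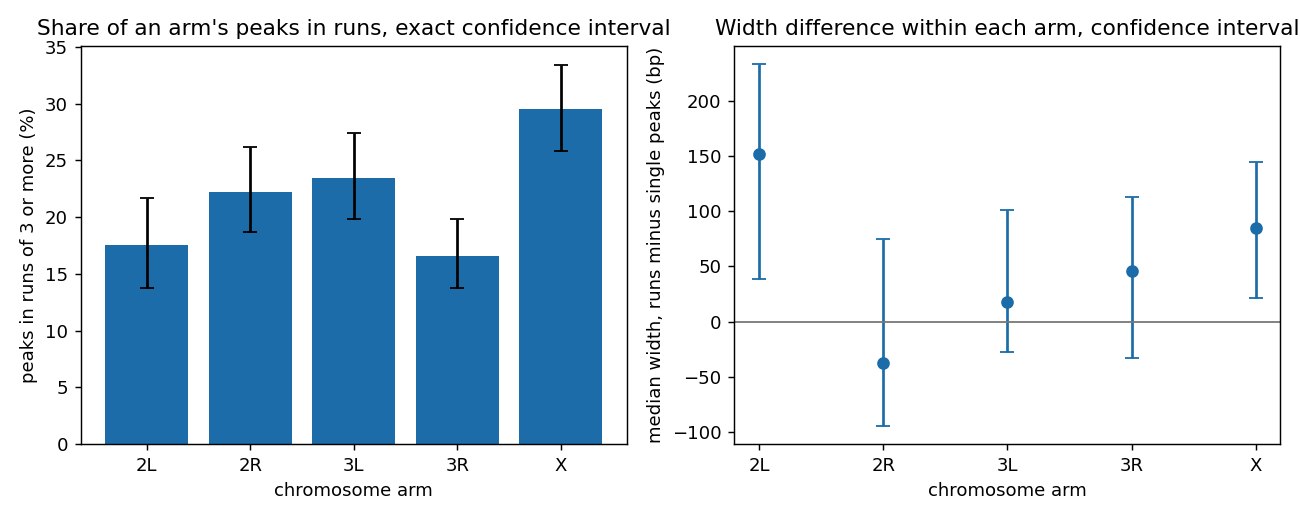
Left, the percentage of each arm's peaks that stood in runs of 3 or more, with exact 95% intervals. Right, the median width of members minus that of single peaks on each arm, in bp, with its 95% interval and a line at 0. The share was highest on X (29.5%) and lowest on 3R (16.6%), and the width difference ran from -37 bp on 2R to 151.5 bp on 2L.

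Along the arms, windows differed in their number of runs. Of 119 windows of 1 Mb, 78 held at least 1 run by its midpoint and 41 held none. The 21 windows with 3 or more runs held 73 of the 147 runs. Whether this was more uneven than a random scatter of runs was not tested. The windows with the most were chr2R:8000001-9000000 and chr2L:1-1000000, with 6 runs each.

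In chr2R:8000001-9000000, 28 of 56 peaks were members (50%), in runs of 3, 3, 4, 5, 5 and 8. In chr2L:1-1000000, 22 of 46 were (47.8%), in 3 runs of 3, 2 of 4 and 1 of 5, although 2L had few members as a whole. Next came chr2R:17000001-18000000 with 5 runs and 17 of 35 peaks. A high share also occurred in sparser windows, as in chrX:3000001-4000000, where 11 of 16 peaks (68.8%) were members of 3 runs.

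Dense windows did not always hold runs. The window chr3R:5000001-6000000 had 32 peaks and no run. Such windows were the minority of those without a run: of these 41 windows, 10 had 20 or more peaks, and the others had fewer. The windows named here were picked out after their values were seen.

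The surroundings of the runs varied. The nearest peak outside a run lay 12068.5 bp away in the median (9827 to 14117.5 bp), measured between midpoints, and 62 of 147 runs (42.2%) had one within 10 kb. For runs of 2 the nearest outside peak lay 13550 bp away (12136.5 to 15472.5 bp). Single peaks lay 17180.5 bp from their nearest neighbour (16020.5 to 18448.5 bp), and 28.1% had one within 10 kb. These distances are all above 5000 bp by the rule.

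At the other extreme, 38 runs had no other peak within 20 kb and 9 had none within 50 kb. The most isolated run, chr3R:8044512-8047406 with 3 peaks, lay 134467.5 bp from the next peak. A run therefore occurred both within larger groups of peaks and on its own.

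Neighbouring runs on the same arm were 521.7 kb apart in the median over 142 gaps. Only 8 pairs were less than 10 kb apart, from edge to edge. The closest were chr2R:17030662-17037655 and chr2R:17042000-17048335, with 4.34 kb between them, followed by chr3R:7035800-7050095 and chr3R:7054989-7063246 with 4.89 kb. The run of 8 at chr3L:627734-640961, with its 5 wide peaks, was followed after 5.79 kb by a run of 5 at chr3L:646748-654208.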

How the data were processed

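Chromatin immunoprecipitation followed by sequencing gave 4 ChIP and 2 input libraries. Bowtie 0.12.5 is named, per the submitters' processing notes. How peaks were called from its alignments, with which threshold, input or pooling, is not given in the sources used here, and neither is the build. The authors deposited 1 list of peak starts and ends in bp, with no score. Its chromosome names are those of Release 5 of the assembly. The gene table at hand is of Release 6 and was not joined, and the planned description of a sequence word was not run.

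Deposited starts were taken as counted from 0, as the BED format has it, which the file does not state. They are printed with 1 added, and width is the deposited end minus start. Chromosome 4 and the unplaced and heterochromatin sequences were left out by the rule. Peaks were linked, classed and summarised with Python 3.11.15, pandas 2.3.3, scipy 1.17.1 and numpy 2.4.6. Intervals are at 95%. Those of a difference of medians combine the intervals of both medians. The linking was tested on simulated data. Members, lists and measures were chosen with earlier results of these data known. Named are runs of 7 or more, the 3 tightest and 3 longest runs, the 5 widest and 5 narrowest members and the distances nearest the limit. The 3 longest runs are also among those of 7 or more.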

Additional observations from a re-analysis of the deposited data

How the results depend on the processing

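The 12 values were recomputed under 11 alternatives. Of 132 values, 96 stayed within the interval of the reported one and 36 did not. The pooled count leans on the 60 values that leave out an arm and reuse most of the same peaks. Of these 60, 58 stayed, so most of the values that moved came from changes of the rule or of the peaks. Members had a higher median width than single peaks under all 11, but these are not independent checks. Linking edges lets width enter the membership, merging changes widths, and another setting keeps only peaks at or above the median width. The interval of this difference ran from negative to positive with a link of 3000 bp (-18.3 to 69.1 bp), without 2L (-11.6 to 67.4 bp) and without X (-6.23 to 81.6 bp). The sign of the small difference between inner and outer peaks varied. The share of peaks in runs, 22.1%, was 12.4% with a link of 3000 bp, 37.7% with 10000 bp, 24.5% with edges linked, 14.8% after merging within 500 bp, 12.3% among peaks at or above the median width, 11.8% for runs of 4 or more, 23.7% without 3R and 19.9% without X. With a link of 3000 bp the distance, edge gap, ratio of longest to shortest distance and covered share were 1490.2 bp, 641 bp, 1.95 and 57.2%. With 10000 bp they were 3099.5 bp, 2299 bp, 3.43 and 25.6%, and single peaks had a median of 627 bp. Linking edges gave a covered share of 36.2%. Merging widens peaks by the gaps it fills: the medians became 754 bp for members, 783 bp for inner, 734.5 bp for outer and 666 bp for single peaks, with 31.0% of members wider than 1000 bp, a distance of 3042 bp, a gap of 1990.5 bp, a ratio of 1.66 and a difference from single peaks of 88 bp. Among peaks at or above the median width, chosen for being wide, these medians were 897, 894.5, 901 and 827 bp, with 37.3% wide, a distance of 2415.5 bp and 46.7% covered. Runs of 4 or more had an outer median of 748 bp and a ratio of 3.68. No paired analysis was possible because the list has no value per library. Unknown depth and calling threshold limit which peaks, and so which runs, entered the list.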

Other observations

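Outside the 5 large arms the list held 39 peaks, 25 of them on Uextra. By the same linking rule all 39 stood alone.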
